A study of Homo sapiens with 9 samples.

Results

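The 34 genes described here encode enzymes, transcription factors and membrane regulators of cholesterol and long-chain fatty acid synthesis, and 2 sterol-binding proteins. They were chosen by name: a gene belongs to the group if its symbol in the count table is on a list of 34 sterol and fatty acid synthesis genes. All 34 were among the 60649 genes listed in the table. A filter on low counts left 14274 genes for testing, and 34 of the 34 passed it.

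MDA-MB-231 is an established human breast cancer line of the triple-negative class, which lacks the estrogen and progesterone receptors and amplified HER2. The study asked how these cells change when AHR, the gene of the aryl hydrocarbon receptor, is depleted; this receptor is a transcription factor that responds to ligands. Bulk RNA sequencing covered 9 libraries in 3 groups of 3. The control group carried pLKO-GFP, a lentiviral vector without an AHR hairpin. The other groups carried a lentiviral short hairpin RNA (shRNA) against AHR, named shAHR#2 or shAHR#3 on the labels. The study's methods number their hairpins differently from the labels, so no hairpin sequence is assigned to either label here. Every library came from MDA-MB-231 cells in the same serum-containing medium, and the treatment label reads proliferation for all 9. Each group is a mixed population selected with puromycin and not a clone.

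Library totals lay between 17407688 and 19509030 counts in the pLKO-GFP group, between 15991396 and 19112459 in the shAHR#2 group and between 19436825 and 20374460 in the shAHR#3 group. No source used here states that the replicates were separate cultures, so the p-values measure the spread between these libraries, which may be technical. Levels are given as counts-per-million values (CPM), that is, scaled counts divided by the library size after normalisation by the trimmed mean of M values (TMM). A gene is called higher or lower where edgeR's quasi-likelihood test gave an adjusted p under 0.05 (Benjamini-Hochberg, over the 14274 genes). In bulk libraries such as these, fewer cells that express a gene and less RNA per cell cannot be told apart.

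AHR itself checks the labels. It stood at 114, 118 and 121 CPM in the 3 control libraries, at 42.5, 40.4 and 41.9 CPM with shAHR#2 and at 46.3, 52.1 and 44.5 CPM with shAHR#3. Every hairpin library was below every control library (log2 fold changes -1.50 and -1.31, adjusted p = 1.05e-25 and 4.95e-24).

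Marker genes were read against the cell line's label of mammary epithelial cells. The 6 epithelial genes examined were all detected, with a summed level of 896 to 946 CPM in the control libraries, 1044 to 1088 CPM with shAHR#2 and 1216 to 1306 CPM with shAHR#3, and KRT18 was the most abundant of them (304 ± 5.65 CPM there; SD, n = 3). CDH1, which encodes E-cadherin, had 14 to 20 counts per control library, 24 to 40 with shAHR#2 and 72 to 94 with shAHR#3. Of 4 basal mammary genes, KRT5, KRT14 and KRT17 had between 0 and 2 counts in each of the 9 libraries, and TP63 was the most abundant (summed level of the list 1.92 to 6.01 CPM). The 4 genes typical of mesenchymal-like breast cancer lines summed to 4369 to 4396 CPM in the controls, 7070 to 7248 CPM with shAHR#2 and 5752 to 5784 CPM with shAHR#3, with VIM the most abundant. CD44 of that list went the other way, with group means of 811, 692 and 578 CPM and no overlap. EPCAM, also epithelial, was at 6.62, 6.06 and 6.11 CPM in the 3 groups. Thus the label was matched mainly by simple-epithelium keratins, at levels below that of VIM. EPCAM and CDH1 were detected at low levels, and basal keratins were near or at 0. Among receptor genes, ESR1 had at most 4 counts in any library, PGR had 0 in all 9, and ERBB2 was at 62.4 CPM in the controls.

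Markers of other cells were low. The 3 leukocyte genes summed to 1.02 to 2.20 CPM across the 9 libraries, with CD3E at 0 in all of them and CD14 the most abundant in the controls. Within that sum PTPRC had 1 to 4 counts per control library and 14 to 33 per hairpin library, while CD14 was at 0.957 CPM in the controls and at 0.356 and 0.639 CPM with the hairpins. The 5 fibroblast genes summed to between 14.4 and 17.9 CPM with pLKO-GFP and shAHR#2 and to between 29.4 and 32.5 CPM with shAHR#3, where PDGFRB was the most abundant; DCN was at 0 in 8 of the 9 libraries. The similar sums of the first groups hid opposite shifts, as PDGFRB (8.20 and 4.62 CPM) and COL1A2 (1.76 and 0.42 CPM) were lower with shAHR#2 and COL1A1 (6.31 and 10.02 CPM) was higher. The 3 endothelial genes summed to between 2.15 and 2.71 CPM in the controls, with VWF and CDH5 at 0, and to between 10.4 and 13.3 CPM in the hairpin libraries, nearly all of it PECAM1. Several of these sums differed between the groups, and their part in the results below was not tested.

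Cells build cholesterol from acetyl-CoA. The mevalonate pathway yields the isoprenoid farnesyl diphosphate, squalene synthase joins such units into squalene, and a series of enzymes closes the rings and trims lanosterol to cholesterol. Fatty acid synthesis starts from the same acetyl-CoA, through citrate cleavage, carboxylation to malonyl-CoA and chain building, followed by elongation and desaturation. The transcription factors SREBP-1 and SREBP-2, encoded by SREBF1 and SREBF2, switch on most of these genes. Their precursors are held in the endoplasmic reticulum by SCAP and the INSIG proteins while sterols are plentiful, and when sterols fall SCAP escorts them to the Golgi, where proteases release the active factor.

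Of the 34 genes, 23 were called higher with shAHR#2 than with pLKO-GFP, where 32.6% of all genes tested were called higher, and 5 were called lower, against 33.2% of all genes. With shAHR#3, 22 were called higher (26.9% of all genes) and 5 lower (27.5% of all genes). Both comparisons use the same 3 control libraries and are therefore not independent of each other. The median log2 fold change of the 34 genes was 0.31 with shAHR#2 and 0.29 with shAHR#3, while the median of all genes tested was -0.003 and -6.9e-05. So the share of these genes called higher was above the share of all genes, the share called lower was below it, and the typical rise was small.

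Library by library, the median of the 34 log2 ratios to the control mean was -0.01, 0.01 and 0.00 in the controls, 0.31, 0.29 and 0.31 with shAHR#2, and 0.28, 0.28 and 0.29 with shAHR#3. The 6 hairpin libraries thus all lay above the 3 controls, whose values were close to 0. With shAHR#2, 25 of the 34 genes had all 3 libraries above all 3 controls, 4 had all 3 below and 5 overlapped; among all genes tested, 33.8% were wholly above and 34.4% wholly below. With shAHR#3 the counts were 22 above, 5 below and 7 overlapping, beside 29.2% and 29.5% of all genes.

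Most changes stayed under 0.5 on the log2 scale. When a call also required a log2 fold change of at least 0.5, 7 of the 34 genes were higher with shAHR#2 (13.6% of all genes) and 1 was lower (16.1% of all genes). With shAHR#3, 5 were higher (9.69% of all genes) and 2 were lower (7.78% of all genes). The counts of lower genes turned on values next to that bound. NSDHL joined PMVK as lower with shAHR#2 without pLKO-GFP replicate 3 (-0.55) or shAHR#2 replicate 1 (-0.55), which made 2 genes. PMVK left the set with shAHR#3 without pLKO-GFP replicate 2 (-0.49) or shAHR#3 replicate 1 (-0.46), which left 1 gene. When single libraries were left out, the counts of higher genes ranged from 6 to 8 with shAHR#2 and from 5 to 6 with shAHR#3. With shAHR#3 both counts were close to the share of all genes, and nothing particular is read from them.

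**Figure D1:**
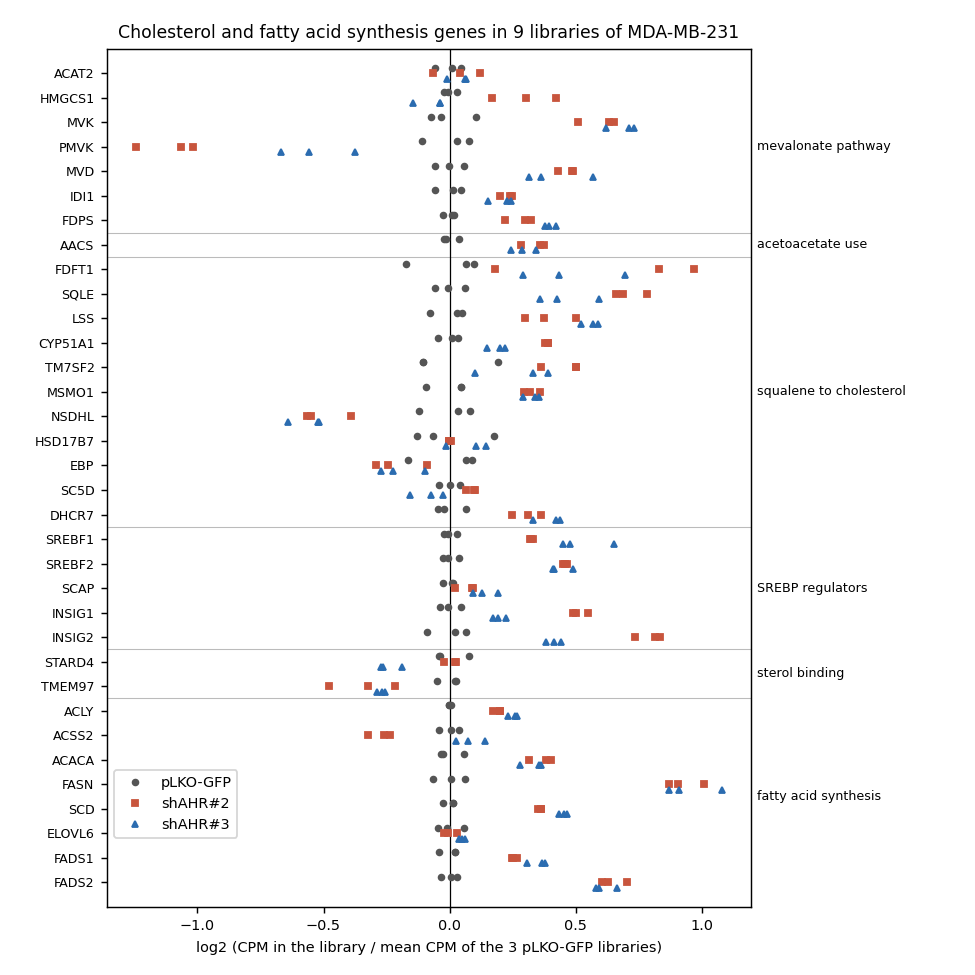
Log2 ratio of the CPM in each of the 9 libraries to the mean CPM of the 3 pLKO-GFP libraries, for the 34 genes ordered by role (points are single libraries; grey circles pLKO-GFP, red squares shAHR#2, blue triangles shAHR#3). FASN lies highest with both hairpins, PMVK lies lowest with shAHR#2 and NSDHL and PMVK lie lowest with shAHR#3. The libraries of ACAT2, HSD17B7, EBP and ELOVL6 overlap the controls with both hairpins.

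Since SREBPs, with the partner factors NF-Y and Sp1, act through promoter sequence, the 250 bases upstream of annotated RefSeq starts (GRCh38.p14) were searched on both strands. A promoter was listed for 30 of the 34 genes, all but ACAT2, FDFT1, SQLE and FASN, and for 10529 of the genes tested. Where a gene had several listed starts, a match in any of them counted. TCACNCCAC, a sterol regulatory element consensus, was found in 1 of the 30 genes (3.33%), SREBF2, beside 1.18% of tested genes. Only this string within the 250 bases counted, so variant or more distant elements were not searched for. CCAAT, the NF-Y motif, was found in 21 (70.0% beside 41.7%), GGGCGG, the Sp1 motif, in 29 (96.7% beside 74.5%), and GCGTG, the core motif bound by the aryl hydrocarbon receptor, in 25 (83.3% beside 53.0%). None of these motifs contains another, except that TCACNCCAC with G at its N holds GCGTG on the opposite strand. A match is a description of letters, and binding was not measured.

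Promoters of 4 genes, chosen after their values were seen, are shown as examples: SREBF2 and SCD rose with both hairpins, and TMEM97 and PMVK fell. Each is the strand of the gene, 5′ to 3′, ending at the base before the annotated start, with TCACNCCAC and CCAAT matches (ATTGG where CCAAT is on the opposite strand) in capitals. The windows hold no exon base of the gene itself in GENCODE release 44. The SREBF2 window lies at chr22:41832855-41833104 (plus strand) within an exon of the noncoding gene SREBF2-AS1, the SCD window at chr10:100346983-100347232 (plus), the TMEM97 window at chr17:28318950-28319199 (plus) and the PMVK window at chr1:154936720-154936969 (minus).
SREBF2: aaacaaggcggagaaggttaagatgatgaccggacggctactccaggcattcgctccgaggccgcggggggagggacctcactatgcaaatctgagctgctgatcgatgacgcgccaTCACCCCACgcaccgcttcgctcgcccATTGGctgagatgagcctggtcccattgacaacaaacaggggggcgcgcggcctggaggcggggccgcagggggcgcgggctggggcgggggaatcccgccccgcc
SCD: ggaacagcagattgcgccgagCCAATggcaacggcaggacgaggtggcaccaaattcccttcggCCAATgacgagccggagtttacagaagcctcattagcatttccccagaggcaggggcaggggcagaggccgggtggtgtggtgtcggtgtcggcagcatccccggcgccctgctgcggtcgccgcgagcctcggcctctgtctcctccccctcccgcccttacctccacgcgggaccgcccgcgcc
TMEM97: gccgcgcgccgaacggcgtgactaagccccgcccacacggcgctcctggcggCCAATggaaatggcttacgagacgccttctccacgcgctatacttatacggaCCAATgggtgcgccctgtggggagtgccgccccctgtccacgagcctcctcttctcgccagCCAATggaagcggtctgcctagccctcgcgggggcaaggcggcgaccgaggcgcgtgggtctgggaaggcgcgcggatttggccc
PMVK: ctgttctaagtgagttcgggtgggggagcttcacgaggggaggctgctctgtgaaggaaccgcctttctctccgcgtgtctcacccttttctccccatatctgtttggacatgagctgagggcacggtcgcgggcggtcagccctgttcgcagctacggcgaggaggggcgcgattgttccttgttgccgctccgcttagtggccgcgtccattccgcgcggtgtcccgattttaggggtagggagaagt
The TCACNCCAC match of SREBF2 begins 133 bases upstream of its start, and 1 CCAAT match follows it on the opposite strand. SCD holds 2 CCAAT matches, TMEM97 holds 3, and PMVK holds neither motif. Among the other genes AACS, CYP51A1, SREBF1, INSIG2, FADS1 and FADS2 held no CCAAT and rose with both hairpins, and NSDHL held 5 and fell, so nothing is read from motif and direction.

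Among the 5 regulators of SREBP activity, 4 were called higher and none lower with shAHR#2, and 5 were called higher with shAHR#3 (of all genes, 32.6% higher and 33.2% lower, then 26.9% and 27.5%). All their log2 fold changes were above 0. SREBF2 (ENSG00000198911.12), whose product drives mainly the cholesterol genes, stood at 139, 145 and 141 CPM in the controls, 195, 193 and 194 CPM with shAHR#2 and 188, 188 and 199 CPM with shAHR#3. All 6 hairpin libraries exceeded all 3 controls, with log2 fold changes of 0.46 (standard error 0.03, adjusted p = 2.06e-15) and 0.44 (standard error 0.03, adjusted p = 1.09e-14). SREBF1 (ENSG00000072310.18), whose product drives mainly the fatty acid genes, stood at 101, 102 and 105 CPM in the controls, 128, 129 and 129 CPM with shAHR#2 and 143, 141 and 162 CPM with shAHR#3. Its groups did not overlap either, with shAHR#3 the highest, and the log2 fold changes were 0.32 (standard error 0.04, adjusted p = 7.92e-09) and 0.53 (standard error 0.04, adjusted p = 2.89e-14).

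SCAP (ENSG00000114650.20), the escort protein, stood at 69.9, 71.8 and 71.7 CPM in the controls, 72.2, 75.6 and 75.9 CPM with shAHR#2 and 77.7, 75.7 and 81.2 CPM with shAHR#3. The hairpin libraries lay just above the controls, and the difference passed the test only with shAHR#3 (log2 fold change 0.14, adjusted p = 0.00424; with shAHR#2 it was 0.07, adjusted p = 0.156). The difference between the hairpins did not pass the test either (0.07, 95% confidence interval -0.01 to 0.15).

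INSIG1 and INSIG2 encode the proteins that retain SCAP, and INSIG1 is also a classic SREBP target. INSIG1 (ENSG00000186480.13) stood at 172, 168 and 178 CPM in the controls, 253, 245 and 243 CPM with shAHR#2 and 195, 202 and 198 CPM with shAHR#3, and INSIG2 (ENSG00000125629.15) at 39.1, 40.3 and 36.2, then 67.8, 64.1 and 68.8, then 51.4, 52.3 and 50.2 CPM. Both genes had 3 separate groups, with shAHR#2 above shAHR#3 and the controls lowest. INSIG1 rose by 0.51 with shAHR#2 (standard error 0.03, adjusted p = 1.65e-17) and 0.20 with shAHR#3 (standard error 0.03, adjusted p = 9.23e-07) on the log2 scale. INSIG2 rose by 0.80 (standard error 0.05, adjusted p = 1.30e-16) and 0.41 (standard error 0.05, adjusted p = 9.63e-09), the largest rise among the regulators with shAHR#2.

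Of the 7 genes from acetyl-CoA to farnesyl diphosphate, 5 were called higher and 1 lower with shAHR#2 (32.6% and 33.2% of all genes), and 4 higher and 1 lower with shAHR#3 (26.9% and 27.5%). MVK (ENSG00000110921.14), mevalonate kinase, stood at 18.1, 19.9 and 17.6 CPM in the controls, 29.2, 26.4 and 28.8 CPM with shAHR#2 and 28.5, 30.8 and 30.4 CPM with shAHR#3. It rose in all 6 hairpin libraries, by 0.60 (standard error 0.07, adjusted p = 3.82e-09) and 0.69 (standard error 0.07, adjusted p = 1.42e-10) on the log2 scale. PMVK (ENSG00000163344.6), phosphomevalonate kinase, acts directly after MVK and went the other way. It stood at 18.4, 19.0 and 16.8 CPM in the controls, 8.63, 7.64 and 8.92 CPM with shAHR#2 and 11.4, 12.3 and 13.9 CPM with shAHR#3. Its 3 groups were separate, shAHR#2 the lowest, and the log2 fold changes were -1.10 (standard error 0.10, adjusted p = 2.32e-12) and -0.53 (standard error 0.09, adjusted p = 4.58e-06). PMVK thus had the largest change of any of the 34 genes with shAHR#2, and it was a fall, between steps whose genes rose.

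HMGCS1 (ENSG00000112972.15), the HMG-CoA synthase of the cytosol, stood at 54.2, 53.7 and 55.7 CPM in the controls, 67.3, 61.3 and 73.0 CPM with shAHR#2 and 53.1, 53.1 and 49.4 CPM with shAHR#3. Its shAHR#2 libraries lay above all others, and its shAHR#3 libraries below all controls by a small margin. The log2 fold change was 0.30 with shAHR#2 (standard error 0.05, adjusted p = 3.04e-06) and -0.07 with shAHR#3 (adjusted p = 0.234, not called). The remaining genes of this stretch are the decarboxylase MVD, the isomerase IDI1, the farnesyl diphosphate synthase FDPS and the thiolase ACAT2. MVD (0.47 and 0.42), IDI1 (0.23 and 0.21) and FDPS (0.28 and 0.40) rose with both hairpins. ACAT2, the entry step, had log2 fold changes of 0.03 and 0.04 and was not called.

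AACS (ENSG00000081760.17), acetoacetyl-CoA synthetase, feeds the ketone body acetoacetate into the same pathway. It stood at 40.7, 40.8 and 42.4 CPM in the controls, 52.9, 50.2 and 53.5 CPM with shAHR#2 and 48.9, 50.4 and 52.3 CPM with shAHR#3. All hairpin libraries were above the controls, while the hairpin groups overlapped each other. The log2 fold changes were 0.34 (standard error 0.05, adjusted p = 3.31e-07) and 0.29 (standard error 0.05, adjusted p = 5.64e-06).

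From squalene to cholesterol, 7 of 11 genes were called higher and 2 lower with shAHR#2, where 32.6% and 33.2% of all genes were, and 6 higher and 2 lower with shAHR#3, where 26.9% and 27.5% were. SQLE (ENSG00000104549.12), squalene epoxidase, a rate-limiting enzyme of sterol synthesis, stood at 29.1, 26.7 and 27.8 CPM in the controls, 47.9, 44.9 and 44.03 CPM with shAHR#2 and 37.4, 42.0 and 35.7 CPM with shAHR#3. The groups were separate, with shAHR#2 highest, and SQLE rose by 0.72 (standard error 0.06, adjusted p = 1.56e-12) and 0.46 (standard error 0.06, adjusted p = 8.46e-08) on the log2 scale. LSS (ENSG00000160285.15), lanosterol synthase, stood at 47.0, 51.4 and 50.7 CPM in the controls, 64.4, 70.4 and 61.2 CPM with shAHR#2 and 74.7, 71.3 and 73.8 CPM with shAHR#3. Here shAHR#3 was the highest group, with log2 fold changes of 0.39 (standard error 0.05, adjusted p = 1.17e-08) and 0.56 (standard error 0.05, adjusted p = 1.79e-12).

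FDFT1 (ENSG00000079459.13), squalene synthase, the first committed enzyme of the sterol branch, was the most variable of the 34 genes within both hairpin groups. It stood at 32.7, 27.1 and 32.0 CPM in the controls, 54.3, 59.8 and 34.7 CPM with shAHR#2 and 41.3, 37.4 and 49.5 CPM with shAHR#3. All hairpin libraries exceeded the controls, yet shAHR#2 replicate 3 lay far under the other shAHR#2 libraries and the coefficient of variation in that group was 26.7%. The log2 fold changes were 0.70 (standard error 0.11, adjusted p = 4.81e-07) and 0.49 (standard error 0.11, adjusted p = 2.12e-04), and the call with shAHR#3 was lost with DESeq2 (0.48).

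NSDHL (ENSG00000147383.11), a dehydrogenase that takes part in removing methyl groups from lanosterol, fell. It stood at 32.4, 31.4 and 28.2 CPM in the controls, 23.4, 20.7 and 20.9 CPM with shAHR#2 and 21.4, 21.3 and 19.7 CPM with shAHR#3. No hairpin library reached the lowest control, and the log2 fold changes were -0.49 (standard error 0.07, adjusted p = 2.32e-07) and -0.56 (standard error 0.07, adjusted p = 2.06e-08). MSMO1, the methyl oxidase of the same reaction sequence, rose by 0.32 and 0.33, and HSD17B7, its ketoreductase, was not called (-0.003 and 0.08). The 3 enzymes of this demethylation complex therefore did not move as a unit.

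Of the other sterol enzymes, CYP51A1, the lanosterol demethylase, rose by 0.39 and 0.19, and DHCR7, the last reductase on the path through dehydrocholesterol, by 0.31 and 0.40. TM7SF2, a sterol reductase with the lowest counts of the 34 genes (78 to 114 per library), rose by 0.46 with shAHR#2 and was at 0.29 with shAHR#3, not called; that value became 0.39 and was called without pLKO-GFP replicate 1. SC5D, a desaturase, was called with neither hairpin (0.09 and -0.09), and the value with shAHR#3 became -0.12 and was called without shAHR#3 replicate 2. EBP, the sterol isomerase, was called lower with shAHR#2 at -0.21 (adjusted p = 0.0116) and with shAHR#3 at -0.20 (adjusted p = 0.0185), but its groups overlapped. Its calls were fragile. Without pLKO-GFP replicate 2 the EBP values were -0.18 and -0.17, without pLKO-GFP replicate 3 they were -0.17 and -0.15, and none of these 4 was called; the call with shAHR#2 was also lost without shAHR#2 replicate 1 (-0.16), and that with shAHR#3 without shAHR#3 replicate 2 (-0.16).

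STARD4 and TMEM97 encode proteins that bind and move sterols, STARD4 in the cytosol and TMEM97 in membranes. TMEM97 fell with shAHR#2 (log2 fold change -0.33, adjusted p = 2.77e-07), and the fall with shAHR#3 was -0.27 (adjusted p = 9.01e-06). STARD4 was at 0.01 with shAHR#2 (adjusted p = 0.883, not called) and fell by 0.24 with shAHR#3 (adjusted p = 3.55e-06). Neither gene was called higher in either comparison.

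Fatty acid synthesis had 6 of 8 genes called higher and 1 lower with shAHR#2, beside 32.6% and 33.2% of all genes. With shAHR#3 it had 6 higher, beside 26.9% of all genes, and ELOVL6 and ACSS2 were the 2 not called. FASN (ENSG00000169710.9), fatty acid synthase, which builds palmitate, stood at 309, 325 and 337 CPM in the controls, 607, 651 and 592 CPM with shAHR#2 and 608, 592 and 684 CPM with shAHR#3. The hairpin libraries were nearly double the controls and overlapped each other. FASN was 1.90-fold higher with shAHR#2 (log2 fold change 0.93, standard error 0.04, adjusted p = 1.93e-22) and 1.94-fold higher with shAHR#3 (0.95, standard error 0.04, adjusted p = 1.99e-22), the largest rise among the 34 genes in each comparison. FADS2 (ENSG00000134824.14), a desaturase that starts the making of polyunsaturated fatty acids, stood at 264, 273 and 277 CPM in the controls, 412, 442 and 419 CPM with shAHR#2 and 408, 406 and 429 CPM with shAHR#3. Its hairpin libraries were all above the controls and overlapped each other, with log2 fold changes of 0.64 (standard error 0.03, adjusted p = 7.47e-21) and 0.61 (standard error 0.03, adjusted p = 8.54e-20).

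ACSS2 (ENSG00000131069.20), acetyl-CoA synthetase, makes acetyl-CoA from acetate. It stood at 52.7, 49.99 and 51.7 CPM in the controls, 43.7, 43.0 and 41.1 CPM with shAHR#2 and 52.3, 56.7 and 54.1 CPM with shAHR#3. Only the shAHR#2 libraries stood apart, below the rest, with a log2 fold change of -0.27 (standard error 0.05, adjusted p = 1.59e-05); with shAHR#3 the value was 0.08 (adjusted p = 0.158, not called). The remaining genes were more even between the hairpins. ACLY, which cleaves citrate to acetyl-CoA, rose by 0.19 and 0.25, ACACA, which makes malonyl-CoA, by 0.37 and 0.33, the desaturase SCD by 0.36 and 0.45 and the desaturase FADS1 by 0.26 and 0.35. ELOVL6, which elongates palmitate, was at 0.001 and 0.05 and was not called.

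Levels between genes are compared per length, as CPM per kilobase of annotated exon. The length counts every annotated exon of a gene, whether or not these cells use it, so the order depends partly on annotation. For example, MVK and PMVK had similar control means (18.6 and 18.1 CPM) but lengths of 9018 and 1002 bases. In the controls SCD was by far the most abundant at 219, followed by ACLY at 80.6, INSIG1 at 47.4 and CYP51A1 at 43.9. At the low end stood HSD17B7 at 1.98 and TM7SF2 at 1.25, with MVK at 2.06. FASN, ranked below ACLY and close to FADS1 and ACAT2 in the controls (34.8, 35.0 and 35.0), reached 66.2 with shAHR#2 and 67.4 with shAHR#3. PMVK passed from 18.0 to 8.38 and 12.5, so that it went from about the level of SREBF2 (17.6) in the controls to well below it (24.1 and 23.8) in both hairpin groups. The spread between replicates was small for most genes, with a median coefficient of variation over the 34 genes of 3.58% in the controls, 3.24% with shAHR#2 and 3.37% with shAHR#3.

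**Figure D2:**
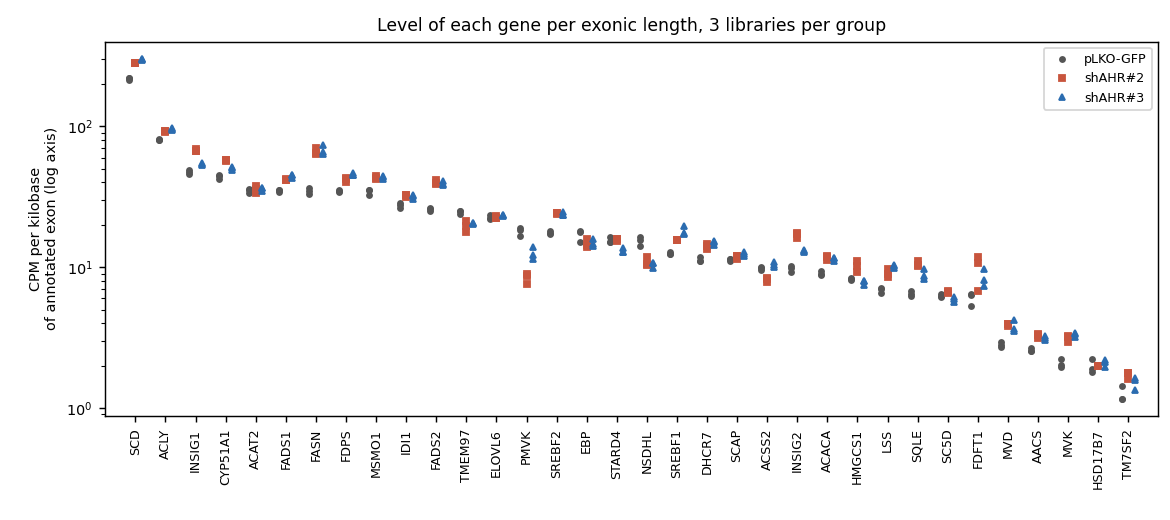
Level of the 34 genes in each library as CPM per kilobase of annotated exon, on a log axis, in order of their mean in the controls (grey circles pLKO-GFP, red squares shAHR#2, blue triangles shAHR#3; 3 libraries per group). SCD lies at the top, TM7SF2 at the bottom, and FASN and PMVK leave their place in the order in the hairpin libraries.

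Comparing the hairpins directly shows where their effects differ. Of the 34 genes, 8 were called higher with shAHR#3 than with shAHR#2 (21.9% of all genes) and 7 lower (20.4% of all genes), which is close to the share of all genes. The median log2 difference was 0.01, as for all genes tested (0.01). In 9 genes all shAHR#3 libraries lay above all shAHR#2 libraries (25.5% of all genes), in 7 they lay below (24.1% of all genes), and 18 overlapped. With a size of at least 0.5 on the log2 scale, 1 gene was higher, PMVK (6.96% of all genes), and 0 were lower (4.41% of all genes). Without shAHR#3 replicate 3 PMVK was at 0.49 and the count of higher genes was 0. The lowest value among the 34 genes was -0.38.

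PMVK was 0.58 higher with shAHR#3 (95% confidence interval 0.36 to 0.79, adjusted p = 1.82e-05), that is, it fell less. The next largest differences were INSIG2 at -0.38 (-0.48 to -0.29, adjusted p = 2.34e-08), HMGCS1 at -0.38 (-0.48 to -0.27, adjusted p = 1.30e-07) and ACSS2 at 0.35 (0.25 to 0.45, adjusted p = 3.34e-07). Lower with shAHR#3 were also INSIG1 (-0.32), SQLE (-0.25), STARD4 (-0.25), CYP51A1 (-0.20) and SC5D (-0.17). Higher with shAHR#3 were also SREBF1 (0.21), LSS (0.17), FDPS (0.12), FADS1 (0.09), SCD (0.09) and ACLY (0.06). SCD was at -0.13 once the median of neighbouring genes on its chromosome (0.23) was subtracted. As the counts were close to the share of all genes, no pattern by role is read from these lists.

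Some of these differences rested on single settings or libraries. LSS was at 0.13 and not called without shAHR#2 replicate 3. ACLY lost its call in several fits, such as with DESeq2 (0.06) and without shAHR#2 replicate 3 (0.06), shAHR#2 replicate 1 or 2 (0.07 each) or shAHR#3 replicate 2 or 3 (0.06 each). FDFT1, at -0.22 and not called, became -0.41 and called without shAHR#2 replicate 3, and -0.34 and called without shAHR#3 replicate 3. DHCR7, at 0.09 and not called, was 0.12 and called without shAHR#2 replicate 2 or shAHR#3 replicate 2. For FASN, the gene with the largest rise in each comparison, the 95% confidence interval of the difference was -0.05 to 0.10.

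**Figure D3:**
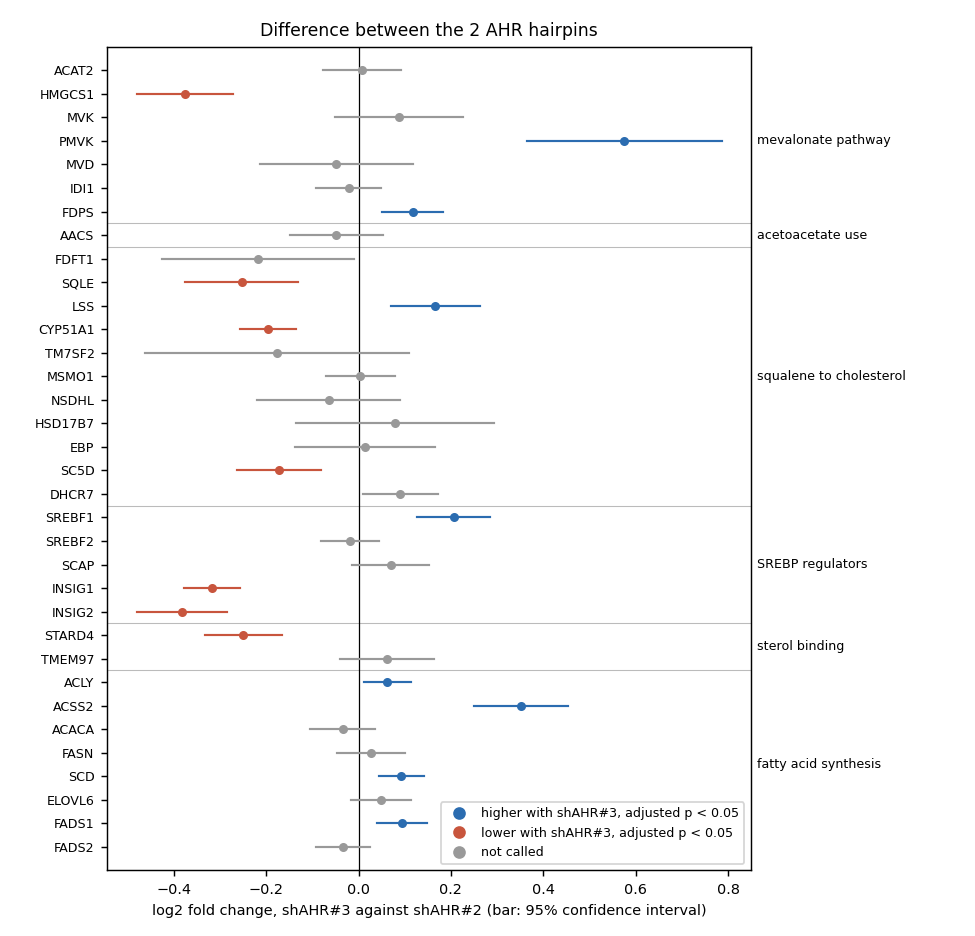
Log2 fold change of shAHR#3 against shAHR#2 for the 34 genes by role, with 95% confidence intervals as bars (blue, higher with shAHR#3; red, lower; grey, not called). PMVK and ACSS2 lie farthest to the right and INSIG2, HMGCS1 and INSIG1 farthest to the left, while FASN and FADS2 sit near 0.

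Position on the chromosome was set beside these values, because whole stretches of chromosomes differed between the groups. For each gene the median log2 fold change of up to 50 tested genes on either side was taken (GENCODE release 44, GRCh38). Chromosome 5, with HMGCS1 and STARD4, had a median of -0.48 with shAHR#2 and -0.26 with shAHR#3 over 656 tested genes. Chromosomes 10 (-0.32 and -0.15), 20 (-0.31 and -0.14), 4 (-0.30 and -0.23) and X (-0.24 and -0.32) were also low, and chromosome 12 was high (0.22 and 0.17). Among the 34 genes, HMGCS1 rose with shAHR#2 while its neighbours had a median of -0.57, SCD rose (neighbours -0.42 and -0.22), and MSMO1 rose (neighbours -0.38 and -0.22). These genes therefore moved against their surroundings, by 0.87, 0.78 and 0.70 above the neighbours with shAHR#2. Other rises lay among neighbours that were also higher. With shAHR#2 these included ACLY (0.19, neighbours 0.14), FADS1 (0.26, neighbours 0.14), FDPS (0.28, neighbours 0.14), AACS (0.34, neighbours 0.19) and LSS (0.39, neighbours 0.25).

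Like the rise of ACLY with shAHR#2, some falls were close in size to their neighbourhood. EBP (-0.21 and -0.20) had neighbours at -0.21 and -0.22, and STARD4 with shAHR#3 (-0.24) had neighbours at -0.25. ACSS2 fell less with shAHR#2 (-0.27) than its neighbours (-0.40). ELOVL6 and HSD17B7, which were not called, lay among neighbours at -0.34 and -0.38 with shAHR#2. By contrast PMVK fell among neighbours at 0.19 and 0.22, and TMEM97 among neighbours at 0.17 and 0.14. NSDHL, on chromosome X, was lower than its neighbours (-0.09 and -0.25) by a further -0.41 and -0.31. Taken relative to the neighbours, the median of the 34 genes was 0.32 with shAHR#2 and 0.26 with shAHR#3. The part of chromosome position in any single change was not tested.

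**Figure D4:**
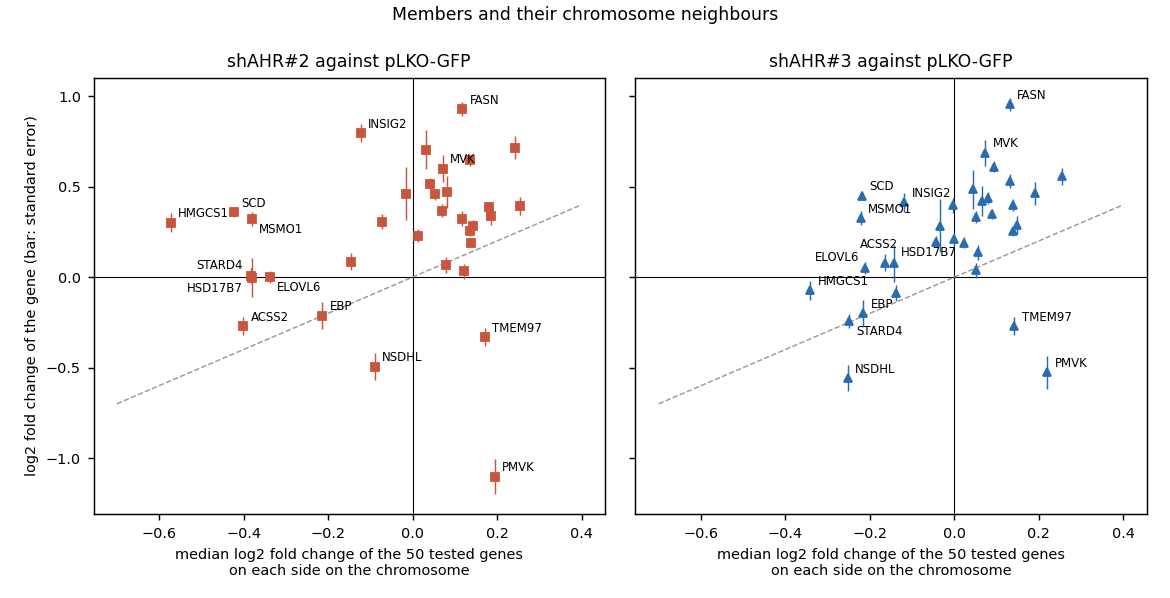
Log2 fold change of each of the 34 genes (bar, standard error) against the median log2 fold change of its neighbours on the chromosome, with shAHR#2 on the left and shAHR#3 on the right (dashed line, equal values). Most genes lie above the line, EBP lies on it, and PMVK, TMEM97 and NSDHL lie below it. ACAT2 lies slightly below it with shAHR#2 (0.03, neighbours 0.12).

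Reads of overlapping genes limit a few of these values, since the use of strand in counting is not given in the sources used here. In GENCODE release 44, 68.2% of the exon bases of CYP51A1 and 36.4% of those of EBP are shared with another gene on the same strand. Antisense exons cover 37.7% of HMGCS1, 22.2% of ACAT2, 18.6% of FDPS, 14.97% of IDI1, 12.3% of TMEM97 and 9.08% of SREBF2. Counts of these genes are therefore uncertain. PMVK (chromosome 1, 154924740 to 154936719), FASN (chromosome 17, 82078338 to 82098294), INSIG1, INSIG2, SQLE, NSDHL, SCD and ACSS2 share no exon base with another annotated gene. FADS1 lies within the span of FADS2 on chromosome 11, on the opposite strand, and antisense exons cover 4.79% and 4.64% of their exon bases.

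Pathways around the 34 genes were described by 8 further gene lists, again as counts of calls. Beside them stand the shares of all genes tested, 32.6% higher and 33.2% lower with shAHR#2 and 26.9% higher and 27.5% lower with shAHR#3. The SREBP processing and degradation list, with the proteases that cut SREBPs and the ubiquitin ligases that act on sterol enzymes, had 4 of 11 genes higher and 7 lower with shAHR#2 and 1 higher and 5 lower with shAHR#3 (medians -0.25 and -0.14). MBTPS2, the membrane protease that makes the second cut, fell by 0.52 and 0.74 on the log2 scale, and ERLIN1 fell by 0.52 and 0.43. Both lie among lower neighbours (MBTPS2 -0.16 and -0.21, ERLIN1 -0.42 and -0.22). MBTPS1, the other protease of the list, rose by 0.07 (adjusted p = 0.0426) and 0.23, and ERLIN2 rose by 0.25 with shAHR#2. Relative to the chromosome neighbours the median of this list was -0.06 with shAHR#2 and -0.07 with shAHR#3, closer to 0 than the plain medians; the part of position was not tested.

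Isoprenoid side branches (prenylation, ubiquinone and dolichol) had counts close to the shares of all genes, with 4 of 14 higher and 5 lower with shAHR#2 and 3 higher and 5 lower with shAHR#3 (medians -0.005 and -0.03). COQ2, of ubiquinone synthesis, fell by 0.69 and 0.51. Cytosolic citrate and NADPH supply, which provides carbon and reducing power for lipid synthesis, had 4 of 4 genes higher with shAHR#2 and 3 of 4 with shAHR#3 (medians 0.37 and 0.22; ME1 was at -0.01 with shAHR#3, not called). The citrate carrier SLC25A1 rose by 0.45 and 0.45. Every gene of this list except ME1 therefore rose with both hairpins.

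Sterol transport and esterification had 8 of 12 genes higher and 3 lower with shAHR#2 and 9 higher and 2 lower with shAHR#3 (medians 0.35 and 0.42). GRAMD1B, which carries cholesterol from the plasma membrane to the endoplasmic reticulum, stood at 12.6, 10.04 and 10.99 CPM in the controls, 63.1, 77.1 and 60.5 CPM with shAHR#2 and 40.5, 41.5 and 40.9 CPM with shAHR#3. Its groups were far apart, 5.98-fold and 3.67-fold above the controls. SOAT1, which esterifies cholesterol for storage, went from 210.1, 226 and 217 CPM to 71.4, 68.3 and 71.0 CPM and to 108, 113 and 113 CPM, log2 fold changes of -1.63 and -0.97. SCARB1, a lipoprotein receptor, rose by 0.93 and 0.84. The changes of GRAMD1B and SOAT1 with shAHR#2 were larger than that of any of the 34 synthesis genes.

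Liver X receptors, which sense oxysterols, and their targets had 5 of 7 genes higher and 2 lower with shAHR#2 and 5 higher and 1 lower with shAHR#3 (medians 0.54 and 0.53). ABCA1, the main sterol exporter of the list, fell by 0.51 and 0.17. ABCG1 had 22 to 28 counts per control library, 6 to 17 with shAHR#2 and 83 to 89 with shAHR#3. It rose with shAHR#3 (log2 fold change 1.70, adjusted p = 3.77e-08). Its value with shAHR#2 was -0.92, and without shAHR#2 replicate 1 it was -0.53 and not called. NR1H3, a receptor of the list, rose by 1.02 with shAHR#3, and MYLIP and SMPDL3A rose by 0.69 and 0.92 with shAHR#2. Group means (controls, shAHR#2, shAHR#3) were 7.22, 9.52 and 14.6 CPM for NR1H3 and 21.4, 34.6 and 31.0 CPM for MYLIP. For SMPDL3A they were 8.15, 15.4 and 9.59 CPM. Members of this list thus moved in both directions.

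Fatty acid elongation, desaturation and activation had 15 of 16 genes tested, with 10 higher and 4 lower with shAHR#2 and 6 higher and 3 lower with shAHR#3 (medians 0.16 and 0.03). The acyl-CoA synthetase ACSL3 rose by 0.81 and 0.59, and ACSL5 by 0.74 with shAHR#2. Group means of ACSL5 (controls, shAHR#2, shAHR#3) were 205, 342 and 243 CPM. FADS3, which lies beside FADS1 and FADS2 on chromosome 11, fell by 0.89 and 0.55 while those genes rose. ACSL4, which activates arachidonate, fell by 0.65 with shAHR#3 (group means 238, 214 and 151 CPM in the same order).

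Glycerolipid assembly and lipid droplet genes had 7 of 10 higher and 2 lower with shAHR#2 and 6 higher and 2 lower with shAHR#3 (medians 0.45 and 0.18). PLIN2, the coat protein of lipid droplets, stood at 69.9, 64.2 and 65.7 CPM in the controls, 156, 162 and 159 CPM with shAHR#2 and 129, 133 and 130.4 CPM with shAHR#3, which is 2.39-fold and 1.96-fold higher. DGAT2, of the last step of triglyceride synthesis, rose by 1.10 and 0.60, whereas GPAM, of the first acylation step, fell by 1.07 and 0.53. Fatty acid oxidation had 9 of 20 genes higher and 8 lower with shAHR#2 and 9 higher and 5 lower with shAHR#3 (medians -0.05 and 0.08). Its counts of lower genes were near the share of all genes, while its counts of higher genes lay above that share. ACAA1 rose with both hairpins (0.65 and 0.44), and HADH fell with both (-0.76 and -0.52). ACADVL rose by 0.63 with shAHR#2, and its group means (controls, shAHR#2, shAHR#3) were 144, 222 and 182 CPM.

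The medians of the other lists were also taken relative to the chromosome neighbours, with shAHR#2 first and shAHR#3 second. They were -0.02 and -0.06 for isoprenoid branches, 0.36 and 0.17 for citrate and NADPH supply, 0.33 and 0.30 for sterol transport and 0.33 and 0.55 for liver X receptors and targets. For elongation, desaturation and activation they were 0.19 and 0.12, for glycerolipids and lipid droplets 0.37 and 0.22, and for fatty acid oxidation 0.16 and 0.12. The sign thus changed only for fatty acid oxidation with shAHR#2.

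**Figure D5:**
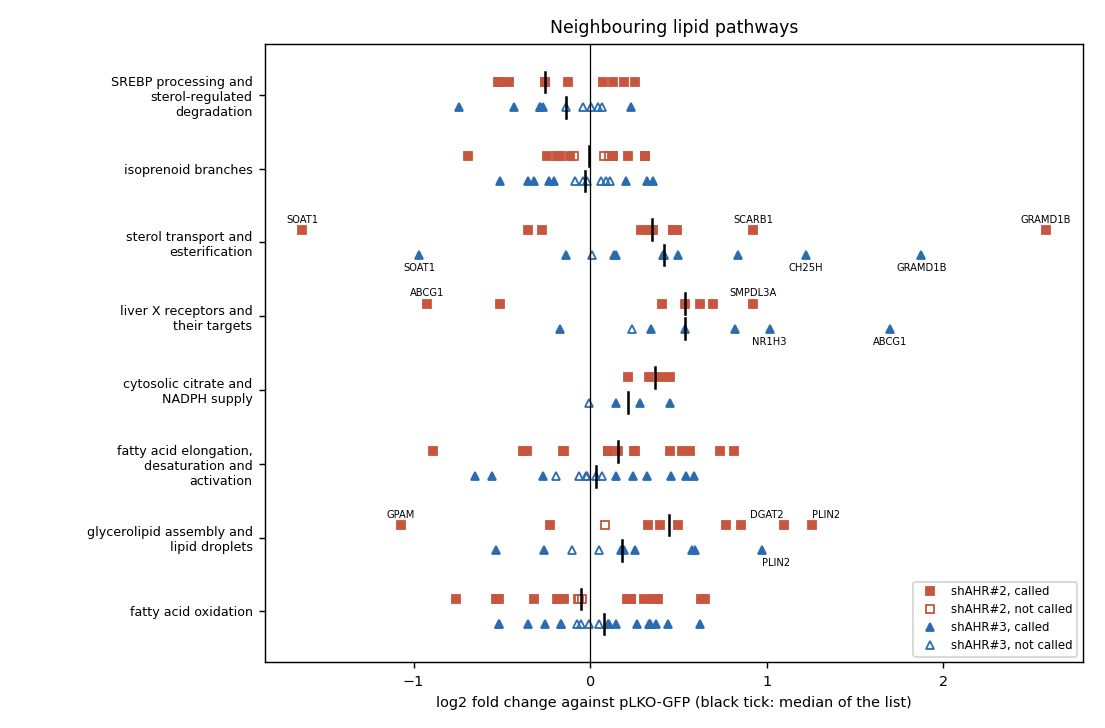
Log2 fold changes against pLKO-GFP of the genes of 8 neighbouring lipid lists (red squares shAHR#2, blue triangles shAHR#3; filled, called; open, not called; black tick, median of the list), with genes beyond 0.9 named. Citrate and NADPH supply lies to the right of 0 but for ME1, which was at -0.01 with shAHR#3, and fatty acid oxidation is spread to both sides.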

How the data were processed

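Poly(A) RNA of 9 MDA-MB-231 libraries was sequenced from a single end after stranded library preparation. The submitters' processing notes name FastQC, STAR, featureCounts, Subread and GRCh38.p13; the annotation release and the strand setting of the counting are not given in the sources used here. The authors deposited whole-number counts per gene, not normalised, and groups were taken from the sample labels. Library totals were 15991396 to 20374460 counts.

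The counts were analysed in R 4.3.3 with edgeR 4.0.16 and limma 3.58.1 (filterByExpr with minimum count 10 and minimum total 15, TMM, a single quasi-likelihood fit to the 9 libraries in which every group has its own mean). P-values were adjusted by Benjamini-Hochberg over 14274 genes, with a threshold of 0.05 and, as a further rule, an absolute log2 fold change of at least 0.5. Standard errors are the log2 fold change divided by the square root of F, and 95% confidence intervals use the t distribution. Counts of replicates differed beyond Poisson sampling, with a chi-square over its degrees of freedom of 1.75 to 4.15, so each replicate was kept as its own library. For the biological coefficient of variation common to all genes edgeR gave 2.96%. The code was tested on simulated data. Plots and motif counts were made with Python 3.11.15, pandas 2.3.3 and matplotlib 3.10.9.

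The 34 genes and the other lists were chosen with earlier results of these data known. Full values were given, by rule, for AHR, the 5 SREBP regulators, AACS, the 6 called genes with the largest change against the control for each hairpin and the 4 with the largest difference between the hairpins. From each other list at most 2 called genes per direction and comparison could be named, provided the average log2 CPM reached 1. The per-library values of GRAMD1B, SOAT1 and PLIN2 among them, and group means of some others, were printed after their values were seen. ME1, MSMO1, EBP and other genes given by value alone were named after their values were seen.

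Alternatives were DESeq2 1.42.0 (the tool of the paper), edgeR with the DESeq2 size factors, all genes kept without a low-count filter, a fit restricted to the groups in a comparison, a replicate block, omission of every library once, an adjusted p under 0.01 and subtraction of the median of 50 tested genes on each side. Other experiments of the paper were not analysed here.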

Additional observations from a re-analysis of the deposited data

Results flagged for a closer look

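PMVK differed most between the hairpins among the 34 genes. It was lower than in the controls with both, and its log2 fold change was 0.58 higher with shAHR#3 than with shAHR#2 by the direct test of that difference. It was singled out because the effects of the 2 hairpins on the same gene differed by more than 0.5 on the log2 scale with an adjusted p under 0.05. Without shAHR#3 replicate 3 the difference was 0.49, so 1 library decides whether it passes 0.5.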

How the results depend on the processing

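Counts of the 34 genes called higher or lower in the 3 comparisons stayed within 1.5 times their reported values with DESeq2, DESeq2 size factors, no filter on low counts, a fit of only the groups compared and an adjusted p under 0.01. With the replicate number as a replicate block, the shAHR#2 comparison had 23 genes higher and 5 lower, the shAHR#3 comparison had 22 higher and 5 lower, and no call among the 34 genes changed; deviations of libraries with the same number were not shared (r from -0.14 to 0.11, with other numbers -0.19 to 0.23, over 5886 genes), so the number is not taken to pair libraries. When each library was left out in turn, the median log2 fold change of the 34 genes ranged from 0.29 to 0.33 with shAHR#2, from 0.26 to 0.30 with shAHR#3 and from -0.00452 to 0.0114 between the hairpins. The number of genes lower by at least 0.5 ranged from 1 to 2 with either hairpin, and the number higher by that size with shAHR#3 against shAHR#2 from 0 to 1. Against the controls, the number higher by that size ranged from 6 to 8 with shAHR#2 and from 5 to 6 with shAHR#3. Relative to neighbouring genes the median was 0.26 with shAHR#3 and -0.0129 between the hairpins. In that setting, by its construction, 5 called values changed sign: EBP (0.00086 with shAHR#2 and 0.0166 with shAHR#3), ACSS2 with shAHR#2 (0.13), STARD4 with shAHR#3 (0.00844) and SCD between the hairpins (-0.13). For the other shifts the cause was not tested. TM7SF2 had the lowest counts of the 34 genes, at 78 to 114 per library, and FDFT1 had the widest spread between replicates within both hairpin groups.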
